A study of Homo sapiens with 26 samples.

Results

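The genes described here are 10 targets of the hypoxia-inducible factors (HIFs) that lie outside glycolysis. They were chosen by gene symbol in the deposited value table: ADM, NDRG1, VEGFA, CA9, EGLN1, EGLN3, BNIP3, P4HA1, P4HA2 and LOX. Of these, 9 had a named probe set, 1 each, among the 17687 genes tested, and CA9, the gene of carbonic anhydrase IX, was not analysed here. RNA came from 3 human lung cancer cell lines, NCI-H1975 (H1975, labelled lung adenocarcinoma), A549 and NCI-H1299 (H1299, both labelled lung carcinoma), and was read on 26 biotin-labelled, single-colour arrays. Cells received either 12.8 µM Omomyc, a MYC-derived miniprotein that dimerizes with MAX and occupies MYC's sites on DNA, or phosphate-buffered saline (PBS), its vehicle. The groups were H1975 with Omomyc (5 arrays) and with PBS (4), A549 with Omomyc (3) and with PBS (4), and H1299 with Omomyc (5) and with PBS (5). All cells grew in RPMI1640 medium with serum, no group was placed at low oxygen by its labels, and how long exposure lasted is not stated in the labels. Each line is a single cultured line, and fewer cells of a type and less RNA per cell cannot be told apart in such bulk RNA.

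HIFs are transcription factors of an oxygen-sensitive alpha subunit and the stable partner ARNT. When oxygen is present, the EGLN prolyl hydroxylases mark the alpha subunit for recognition by VHL and destruction, and when oxygen falls the subunit accumulates and binds DNA at short sites with ARNT. Several of the genes respond to other stresses as well, and NDRG1 was named for its repression by MYC proteins. By role, the genes fall into secreted signals (ADM, which encodes the vasodilator peptide adrenomedullin, and VEGFA, the vascular endothelial growth factor), the stress-responsive gene NDRG1, the feedback hydroxylases EGLN1 and EGLN3, the mitochondrial autophagy and cell death gene BNIP3, and collagen-modifying enzymes (P4HA1 and P4HA2, the catalytic subunits of collagen prolyl 4-hydroxylase, and LOX, the lysyl oxidase that cross-links collagen).

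The promoters of members with different behaviour are shown because the core HIF site, ACGTG or GCGTG, and the E-box bound by MYC and MAX, CACGTG, share letters: CACGTG holds ACGTG on each strand. Promoter windows reach from 250 bases before to 50 bases after the gene start (RefSeq, GRCh38.p14), and 8 of the 10 members had one. Capitals mark every ACGTG or GCGTG on either strand, and a match on the opposite strand reads CACGT or CACGC.
ADM promoter, chr11:10304823-10305122, plus strand: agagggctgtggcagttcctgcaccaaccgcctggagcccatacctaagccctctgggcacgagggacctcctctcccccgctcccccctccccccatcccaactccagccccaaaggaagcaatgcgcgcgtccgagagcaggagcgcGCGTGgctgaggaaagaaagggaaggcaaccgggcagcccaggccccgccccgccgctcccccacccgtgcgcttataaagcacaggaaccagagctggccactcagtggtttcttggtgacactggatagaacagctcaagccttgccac
EGLN1 promoter, chr1:231422238-231422537, minus strand: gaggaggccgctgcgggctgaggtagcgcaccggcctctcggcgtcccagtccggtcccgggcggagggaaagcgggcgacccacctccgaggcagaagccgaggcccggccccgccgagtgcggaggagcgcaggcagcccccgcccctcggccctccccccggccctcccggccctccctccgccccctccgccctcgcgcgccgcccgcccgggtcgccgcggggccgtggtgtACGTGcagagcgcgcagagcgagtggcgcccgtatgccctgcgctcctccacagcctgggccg
BNIP3 promoter, chr10:131981874-131982173, minus strand: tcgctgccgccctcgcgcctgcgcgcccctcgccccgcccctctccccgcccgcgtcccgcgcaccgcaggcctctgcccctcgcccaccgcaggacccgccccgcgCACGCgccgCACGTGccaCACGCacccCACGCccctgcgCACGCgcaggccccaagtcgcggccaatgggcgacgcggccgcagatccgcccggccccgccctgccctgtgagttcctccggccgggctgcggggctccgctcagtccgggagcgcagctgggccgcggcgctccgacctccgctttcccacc
LOX promoter, chr5:122078210-122078509, minus strand: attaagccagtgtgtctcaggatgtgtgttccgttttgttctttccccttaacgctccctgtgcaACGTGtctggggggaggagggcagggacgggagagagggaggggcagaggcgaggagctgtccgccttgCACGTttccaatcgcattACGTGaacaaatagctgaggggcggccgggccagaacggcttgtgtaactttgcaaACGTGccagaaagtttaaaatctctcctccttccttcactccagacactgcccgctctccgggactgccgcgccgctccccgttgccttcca
P4HA2 promoter, chr5:132227042-132227341, minus strand: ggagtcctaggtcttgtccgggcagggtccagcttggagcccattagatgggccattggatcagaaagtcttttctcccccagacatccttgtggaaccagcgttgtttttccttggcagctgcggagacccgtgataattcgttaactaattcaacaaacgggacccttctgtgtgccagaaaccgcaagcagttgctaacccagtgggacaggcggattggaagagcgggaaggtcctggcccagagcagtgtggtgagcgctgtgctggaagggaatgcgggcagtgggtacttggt
Over 35116 promoter windows of this length in the table, 21.4% held ACGTG, 36.5% held GCGTG, 48.4% held either and 7.3% held CACGTG. Of the 10 windows of the 8 members, which include 3 of LOX, 8 held ACGTG or GCGTG, in 6 genes: ADM, CA9, EGLN1, BNIP3, P4HA1 and LOX. The LOX windows not shown overlap each other and hold the same 2 matches, which the window count therefore includes more than once. ADM had 1 match, a GCGTG at -101 from the start, and EGLN1 had 1, an ACGTG at -13. The LOX window shown had 4 ACGTG matches, at -185, -116, -98 and -42. BNIP3 had 6 matches and was the only member whose window held the E-box, at -134. The windows of P4HA2 and EGLN3 held none of these letters. These are matches of letters and not measured binding sites.

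Values are deposited log2 levels, and every difference is Omomyc minus PBS on that log2 scale followed after ± by its standard error in the limma fit. Adjusted p (Benjamini-Hochberg over all 17687 genes) under 0.05 counts as a call. The sorted values of whole arrays fell into 3 clusters of 9, 10 and 7 arrays, called array sets 1, 2 and 3 here. No label or file header names them, and what sets them apart is not known. Array set 3 lacked A549 cells with Omomyc, and otherwise every combination of line and treatment occurred in each array set. Calls are therefore repeated with array set as a block. The 23 background probe sets had means up to 6.69, the level below which values of dim genes are hard to read. Of 12 lung epithelial markers, 7 in H1975, 6 in A549 and 2 in H1299 exceeded that level in PBS arrays. KRT8 and KRT18 did so in all 3 lines, NAPSA, SFTPA1, SFTPB and SFTPC in none of them, and EPCAM did not in H1299 and CDH1 only did in A549. Among leukocyte markers, CD68 exceeded it in all 3 lines and PTPRC, CD3E, CD79A and LYZ in none. Of 5 measured fibroblast markers, COL1A1 (9.44), COL1A2 (8.05) and PDGFRB (6.87) exceeded that level in H1975 PBS arrays, and none did in A549 or H1299. Of 5 endothelial markers only ENG did, at 15.39 in H1975 and 9.5 in H1299. CD68 was the only leukocyte marker called, rising by 1.49 in H1975. There 1 lung epithelial marker of 12 fell, where 5.57% of all genes rose and 6.28% fell. No fibroblast or endothelial marker was called in any line by limma. Their part in the results below was not tested. The labels call the arrays of a group biological replicas and say nothing of separate cultures, so the p-values measure the spread between these arrays, which may be technical.

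In PBS the 3 lines differed in 8 of the 9 measured members. All 8 differed between H1975 and A549, where 38.3% of all genes were called. The same test called 6 of 9 between H1975 and H1299, against 42% of all genes, and 6 of 9 between A549 and H1299, against 41.5%. In the pairs with H1299 all called members had lower values in H1299. Between A549 and H1299 they include EGLN3 and LOX, which lay below the brightest background probe set in both lines, so their order there is not read. Between H1975 and A549 6 were higher in H1975 and ADM and EGLN1 were lower there. VEGFA passed in no pair.

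LOX differed most between lines, with PBS means of 13.26 ± 0.52 in H1975 (SD, n = 4), 4.22 ± 0.37 in A549 (n = 4) and 3.26 ± 0.31 in H1299 (n = 5). Only the H1975 level lies above the brightest background probe set. The difference was 9.04 ± 0.27 for H1975 minus A549 (adjusted p = 2.41e-21), and 10 ± 0.25 for H1975 minus H1299 (adjusted p = 1.41e-22). A549 and H1299 both lay below that level, with overlapping arrays. NDRG1 fell into the order H1975 (10.57 ± 0.39), A549 (9.07 ± 0.31) and H1299 (5.52 ± 0.20). Its neighbours differed by 1.5 ± 0.29 (adjusted p = 0.000101) and 3.55 ± 0.28 (adjusted p = 7.13e-12), and H1299 lay below the brightest background probe set. EGLN3 was at 8.25 ± 0.67 in H1975, above the 5.47 ± 0.54 of A549 and the 3.31 ± 0.16 of H1299, which both lay below that level and are given no order. P4HA2 followed the order of NDRG1, at 11.72 ± 0.12, 10.63 ± 0.33 and 8.54 ± 0.24, all well above the background level.

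ADM was highest in A549, at 10.94 ± 0.55, and was at 6.71 ± 0.19 in H1975 and 7.12 ± 0.56 in H1299. H1975 was 4.23 ± 0.33 below A549 (adjusted p = 7.71e-12) and did not differ beyond the spread from H1299 (difference -0.40 ± 0.31, adjusted p = 0.338). EGLN1 was likewise highest in A549 (11.71 ± 0.19), with H1975 (10.04 ± 0.36) and H1299 (9.92 ± 0.14) not separable (adjusted p = 0.728). BNIP3 stood at 13.46 ± 0.41 in H1975, 12.73 ± 0.48 in A549 and 12.70 ± 0.48 in H1299, and H1975 exceeded A549 by 0.73 ± 0.29 (adjusted p = 0.047) and H1299 by 0.77 ± 0.28 (adjusted p = 0.0255) with overlapping arrays. Leaving out 1 array took the adjusted p of these BNIP3 differences as high as 0.218 and 0.114. P4HA1 was at 11.32 ± 0.38 in H1975, 10.51 ± 0.19 in A549 and 10.77 ± 0.21 in H1299, H1975 being above both (adjusted p = 0.00498 against A549 and 0.039 against H1299) and the other two not separable (adjusted p = 0.396). The call against H1299 was lost without H1975 PBS replicate 2 or 3 or H1299 PBS replicate 1 or 2 (adjusted p up to 0.174), with median centring (0.159) and on the arrays of those 2 lines alone (0.055). VEGFA had PBS means of 12.06 ± 0.69, 11.59 ± 0.57 and 11.68 ± 0.31 in H1975, A549 and H1299. Its 95% confidence intervals were -0.19 to 1.13 for H1975 minus A549, -0.25 to 1.01 for H1975 minus H1299 and -0.72 to 0.54 for A549 minus H1299.

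**Figure D1:**
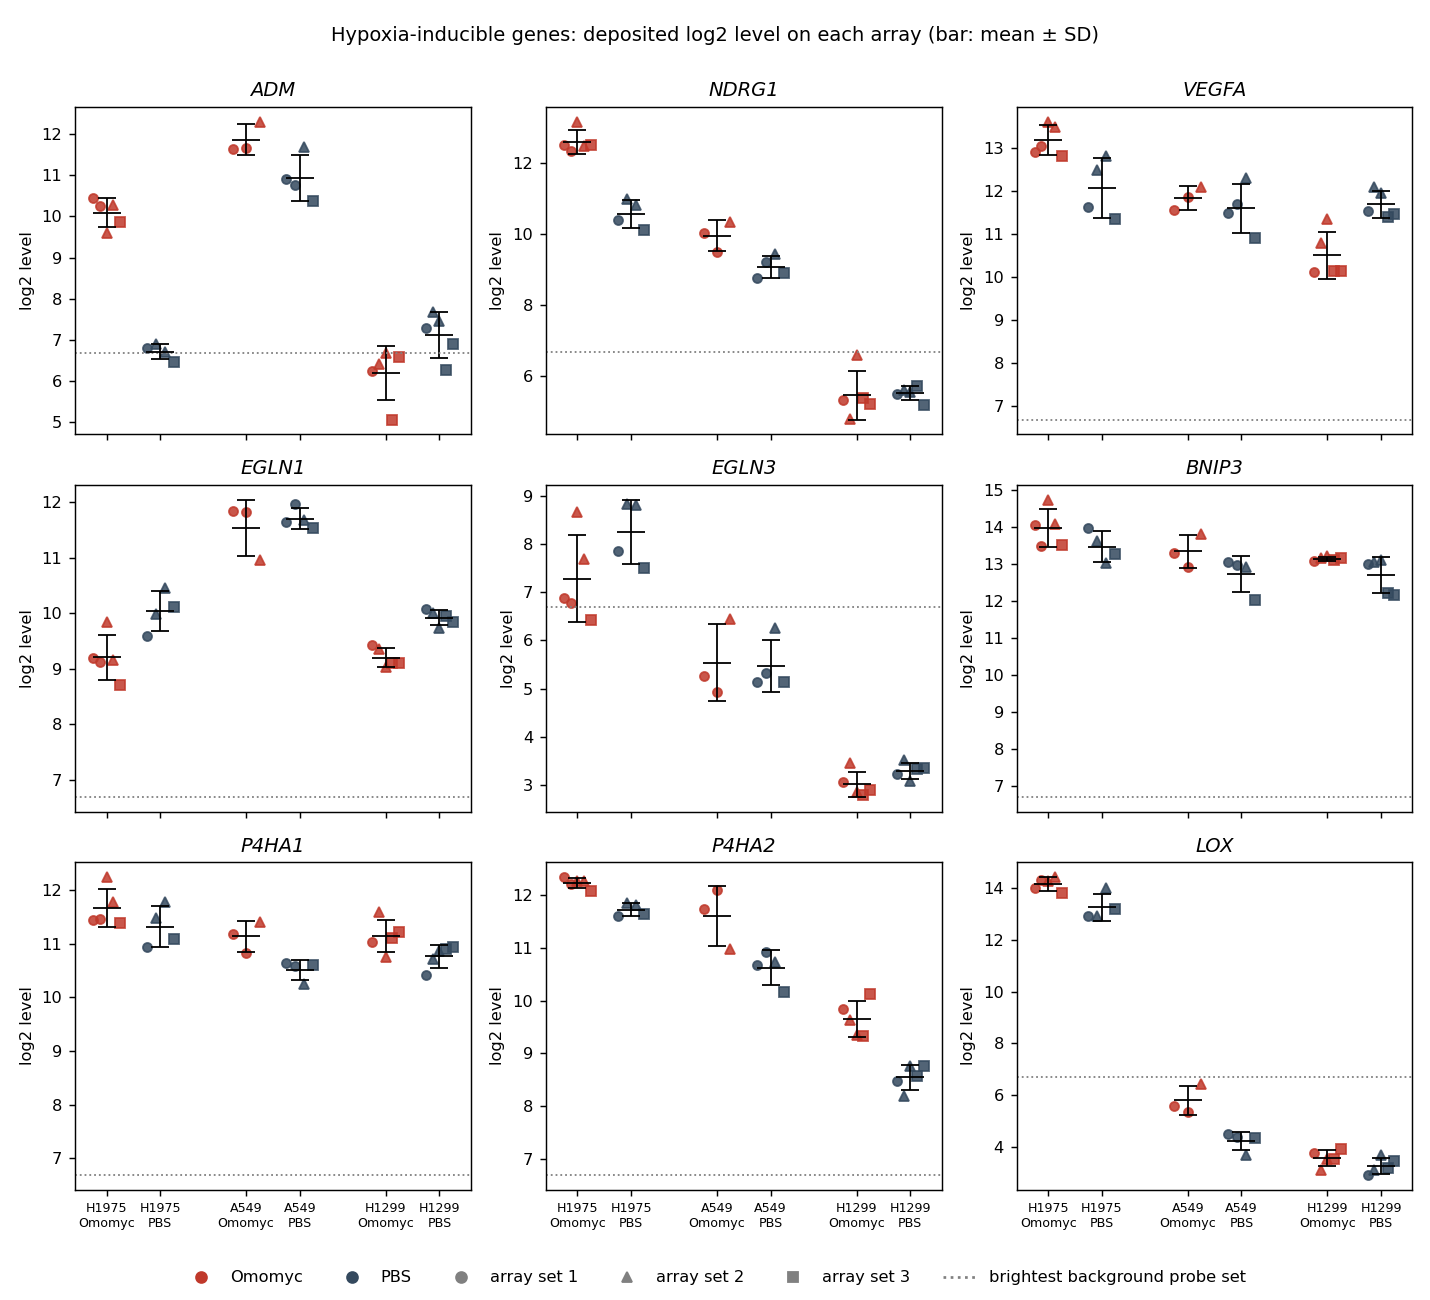
Deposited log2 level of the 9 measured genes on each array, Omomyc (red) left of PBS (dark blue) in each line, with a vertical axis for each gene. Marker shapes give the array set, black bars the mean ± SD, and the dotted line the brightest background probe set at 6.69. ADM and NDRG1 of H1975 lie higher on every Omomyc array than on any PBS array, and VEGFA and EGLN1 of H1299 lie lower on every Omomyc array.

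The members called with Omomyc differed between the 3 lines. In H1975 4 of 9 rose (ADM, NDRG1, VEGFA and LOX) and 1 fell (EGLN1), where 5.57% of all genes rose and 6.28% fell. In A549 2 rose (LOX and P4HA2) and 0 fell, where 0.916% of all genes rose and 0.277% fell. In H1299 1 rose (P4HA2) and 3 fell (VEGFA, ADM and EGLN1), where 4.35% of all genes rose and 4.52% fell. The members were chosen with earlier results of these data known, so these counts beside the shares are not an independent test of the list. The median difference of the 9 was 0.51 in H1975, 0.63 in A549 and -0.06 in H1299, beside 0.004, 0.042 and 0.002 over all genes. With the array set as a block the calls were 4 higher and 2 lower in H1975, EGLN3 being added to those that fell, where 9.37% and 9.85% of all genes were called. The counts stayed at 2 and 0 in A549 (1.71% and 1.13% of all genes) and at 1 and 3 in H1299 (7.73% and 8.17%).

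ADM had the largest difference among the members in H1975 and went the other way in H1299. In H1975 ADM was at 10.46, 10.26, 9.59, 10.29 and 9.86 on the Omomyc arrays, against 6.79, 6.90, 6.71 and 6.45 on the PBS arrays. Every Omomyc array stood more than 2 log2 units above every PBS array, and the PBS arrays lay around the brightest background probe set, so the fold is uncertain there. ADM rose by 3.38 ± 0.31 (adjusted p = 1.06e-08), a fold of 10.4, and by 3.57, 3.13 and 3.41 within array sets 1, 2 and 3. In A549, where the PBS level was already high, the Omomyc arrays had 11.64, 11.66 and 12.30, against 10.92, 10.76, 11.69 and 10.38 with PBS. PBS replicate 3, the array of array set 2, lay within the range of the Omomyc arrays, and the difference of 0.93 ± 0.35 did not pass (adjusted p = 0.322). Within array sets 1 and 2 it was 0.81 and 0.61. In H1299 ADM was at 6.24, 6.41, 6.67, 5.06 and 6.58 with Omomyc, against 7.29, 7.68, 7.46, 6.26 and 6.89 with PBS. The Omomyc arrays lay below the brightest background probe set and overlapped PBS replicate 4. ADM fell by 0.93 ± 0.29 (adjusted p = 0.0437), with -1.05, -1.03 and -0.76 in array sets 1, 2 and 3. This call was lost when any of 7 arrays was left out: PBS replicates 1, 2, 3 and 5 and Omomyc replicates 1, 2 and 4. Without Omomyc replicate 4 the difference was -0.64 (adjusted p = 0.174).

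VEGFA, the other secreted signal, had similar PBS levels in the 3 lines and opposite calls in H1975 and H1299. In H1975 its arrays read 12.91, 13.04, 13.60, 13.48 and 12.82 with Omomyc, against 11.63, 12.48, 12.80 and 11.34 with PBS. The groups did not overlap, by a narrow margin, and the arrays from array set 2 were the highest of each group. VEGFA rose by 1.11 ± 0.31 (adjusted p = 0.015), with 1.35, 0.90 and 1.48 within array sets 1, 2 and 3. The call was lost without PBS replicate 1 (0.96, adjusted p = 0.064) or PBS replicate 4 (0.87, adjusted p = 0.0857), and with the array set as a block the rise was 1.16 ± 0.17 (adjusted p = 1.08e-05). In A549 VEGFA was at 11.55, 11.85 and 12.09 with Omomyc, against 11.49, 11.69, 12.29 and 10.91 with PBS. These overlap, and the difference was 0.23 with a 95% confidence interval of -0.48 to 0.95 (adjusted p = 0.968). In H1299 the Omomyc arrays were at 10.11, 10.79, 11.34, 10.14 and 10.13, against 11.53, 12.08, 11.95, 11.40 and 11.46 with PBS. Every Omomyc array lay below every PBS array. VEGFA fell by 1.18 ± 0.29 (adjusted p = 0.00723), with -1.42, -0.95 and -1.29 in array sets 1, 2 and 3, and the call was kept when any 1 array of the line was left out.

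NDRG1, a stress- and differentiation-responsive gene, rose in H1975. Its Omomyc arrays there were at 12.50, 12.32, 13.15, 12.46 and 12.50, against 10.38, 10.97, 10.81 and 10.12 with PBS. The groups were far apart, and the rise of 2.01 ± 0.28 (adjusted p = 7.46e-06), a fold of 4.03, was kept without any 1 array. The values within array sets 1, 2 and 3 were 2.03, 1.91 and 2.37. In A549 NDRG1 was at 10.04, 9.48 and 10.34 with Omomyc, against 8.75, 9.20, 9.45 and 8.90 with PBS. The Omomyc arrays all stood above the PBS arrays, narrowly at the closest, and the difference of 0.88 ± 0.31 did not pass (adjusted p = 0.259). NDRG1 in H1299 was at 5.46 ± 0.68 with Omomyc (n = 5) and 5.52 ± 0.20 with PBS (n = 5), both below the brightest background probe set.

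The feedback hydroxylases did not follow ADM, NDRG1 and VEGFA upward in H1975. EGLN1, whose enzyme is the main oxygen sensor for HIF alpha subunits, was at 9.19, 9.13, 9.84, 9.16 and 8.71 in H1975 with Omomyc, against 9.60, 9.98, 10.46 and 10.12 with PBS. Omomyc replicate 3 overlapped PBS replicate 1 and the other Omomyc arrays were below all PBS arrays. EGLN1 fell by 0.84 ± 0.22 (adjusted p = 0.0105), with -0.44, -0.72 and -1.42 in array sets 1, 2 and 3, and the call was lost without PBS replicate 3 (-0.70, adjusted p = 0.0569). In H1299 EGLN1 was at 9.43, 9.36, 9.03, 9.10 and 9.10 with Omomyc, against 10.08, 10.00, 9.73, 9.95 and 9.85 with PBS. The groups did not overlap. EGLN1 fell there by 0.72 ± 0.21 (adjusted p = 0.0253), with -0.65, -0.67 and -0.80 in the 3 array sets. That call was lost without PBS replicate 1 or 2 or Omomyc replicate 3, 4 or 5, the adjusted p reaching 0.0632, and with each array centred on its median (adjusted p = 0.0645). In A549 EGLN1 was at 11.54 ± 0.51 with Omomyc (n = 3) and 11.71 ± 0.19 with PBS (n = 4), a difference of -0.16 with a 95% confidence interval of -0.68 to 0.35.

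EGLN3, a hydroxylase that is itself strongly induced by hypoxia in many cells, was at 6.87, 6.78, 8.66, 7.68 and 6.42 in H1975 with Omomyc, against 7.86, 8.83, 8.80 and 7.51 with PBS. The groups overlapped, and in each group the 2 arrays from array set 2 were the highest. The difference of -0.97 ± 0.37 did not pass (adjusted p = 0.0898). With the array set as a block it was -0.89 ± 0.26 and passed (adjusted p = 0.0146), as it did after quantile normalization (0.0158) and median centring (0.0334). It also passed without PBS replicate 4 (0.0434) or Omomyc replicate 3 (0.00789). With the replicate block (0.0732) and with both blocks (0.259) it did not pass. It was -1.03, -0.65 and -1.09 within array sets 1, 2 and 3. In A549 and H1299 EGLN3 stayed below the brightest background probe set in both groups, at 5.55 ± 0.80 with Omomyc and 5.47 ± 0.54 with PBS in A549, and at 3.02 ± 0.27 with Omomyc and 3.31 ± 0.16 with PBS in H1299.

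BNIP3, which encodes a mitochondrial outer membrane protein that recruits the autophagy machinery, did not pass in any line. In H1975 it was at 14.03, 13.48, 14.73, 14.08 and 13.51 with Omomyc, against 13.95, 13.62, 13.02 and 13.25 with PBS. The A549 arrays read 13.30, 12.90 and 13.80 with Omomyc, against 13.04, 12.95, 12.91 and 12.01 with PBS. In H1299 it was at 13.06, 13.14, 13.20, 13.11 and 13.14 with Omomyc, against 12.98, 13.04, 13.10, 12.20 and 12.14 with PBS. The groups overlapped in each line, and the PBS arrays of array set 3 were the lowest of the PBS arrays in A549 and H1299. The differences were 0.50 ± 0.28 in H1975, 0.60 ± 0.31 in A549 and 0.43 ± 0.26 in H1299 (adjusted p = 0.303, 0.634 and 0.409). Within array sets 1, 2 and 3 they were -0.20, 1.09 and 0.26 in H1975 and 0.08, 0.10 and 0.95 in H1299, and within array sets 1 and 2 of A549 0.10 and 0.89.

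Among the collagen enzymes, P4HA2 had a higher mean with Omomyc in all 3 lines, and passed the test in A549 and H1299. In H1975 P4HA2 was at 12.34, 12.21, 12.26, 12.27 and 12.08 with Omomyc, against 11.60, 11.85, 11.81 and 11.64 with PBS. The difference of 0.51 ± 0.22 was small beside the others and did not pass (adjusted p = 0.147). In A549 the Omomyc arrays were at 11.74, 12.10 and 10.97, against 10.68, 10.92, 10.74 and 10.16 with PBS. The lowest Omomyc array, at 10.97, stood only narrowly above the highest PBS array, at 10.92. P4HA2 rose by 0.97 ± 0.25 (adjusted p = 0.0435), with 1.12 and 0.23 in array sets 1 and 2. The call was lost with the replicate number as a block (0.82, adjusted p = 0.145), after quantile normalization of all arrays (adjusted p = 0.137), with each array centred on its median (adjusted p = 0.186), and without PBS replicate 1, 3 or 4 or Omomyc replicate 1 or 2 (adjusted p up to 0.326). In H1299 P4HA2 was at 9.84, 9.63, 9.34, 9.32 and 10.13 with Omomyc, against 8.47, 8.18, 8.75, 8.57 and 8.75 with PBS. The lowest Omomyc array stood well above the highest PBS array. The rise of 1.11 ± 0.20 (adjusted p = 0.000511) was kept without any 1 array, with 1.38, 1.02 and 1.06 in the 3 array sets.

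P4HA1, the other catalytic subunit, averaged 11.66 ± 0.36 with Omomyc and 11.32 ± 0.38 with PBS in H1975, 11.14 ± 0.29 and 10.51 ± 0.19 in A549 with Omomyc and PBS, and 11.14 ± 0.30 and 10.77 ± 0.21 in H1299 with Omomyc and PBS. The groups did not overlap in A549 and overlapped in the other lines. Its differences of 0.34 ± 0.22, 0.63 ± 0.25 and 0.38 ± 0.20 in H1975, A549 and H1299 did not pass (adjusted p = 0.398, 0.351 and 0.329).

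LOX was measured well above background in H1975 alone, at 13.99, 14.33, 14.29, 14.42 and 13.81 with Omomyc, against 12.92, 12.92, 14.01 and 13.18 with PBS. PBS replicate 3 lay among the Omomyc arrays. LOX rose by 0.91 ± 0.25 (adjusted p = 0.0163), with 1.23, 0.89 and 0.62 in array sets 1, 2 and 3, and the call was lost without PBS replicate 1 (adjusted p = 0.0654) or PBS replicate 2 (adjusted p = 0.0724). In A549 LOX was at 5.59, 5.35 and 6.43 with Omomyc, against 4.49, 4.38, 3.68 and 4.33 with PBS. The groups did not overlap but all 7 arrays lay below the brightest background probe set, so the size of the rise, 1.57 ± 0.29 (adjusted p = 0.00248), is uncertain. It was 1.04 and 2.76 in array sets 1 and 2, and was not called on the arrays of A549 alone (adjusted p = 0.0558). LOX in H1299 was at 3.56 ± 0.30 with Omomyc and 3.26 ± 0.31 with PBS, also below that level.

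**Figure D2:**
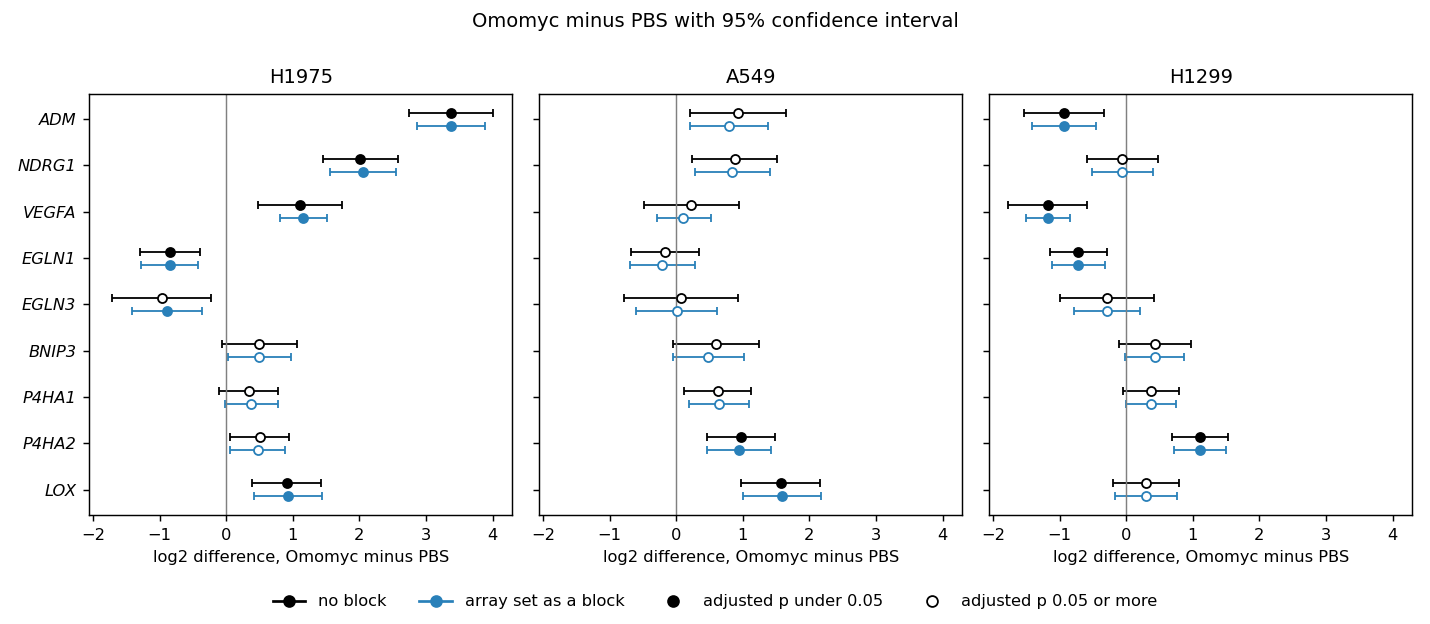
Difference Omomyc minus PBS (log2) of the 9 genes in each line, with the 95% confidence interval of the limma fit, without a block (black) and with the array set as a block (blue). Filled points have an adjusted p under 0.05. ADM, NDRG1 and VEGFA move from the right of 0 in H1975 to 0 or left of it in H1299, whereas P4HA2 lies right of 0 in all 3 panels.

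Whether the response differed between lines was tested as such with the F test of the 2 interaction contrasts, which called 8.18% of all genes (17.4% with the array set as a block). ADM (adjusted p = 2.51e-07), VEGFA (adjusted p = 0.00178) and NDRG1 (adjusted p = 0.0019) passed, 3 of 9 members. LOX, below the brightest background probe set in A549 and H1299, passed with array set as a block (adjusted p = 0.0371, against 0.0782 without it). It did not with the replicate block (0.0849). EGLN1, EGLN3, BNIP3, P4HA1 and P4HA2 did not pass, with adjusted p between 0.426 and 0.978, which does not show that their responses were alike.

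For ADM, VEGFA and NDRG1 the responses of H1975 and H1299 were furthest apart among the pairs of lines. For LOX those of A549 and H1299 were (1.27 ± 0.37). For EGLN1 (-0.67 ± 0.33) and EGLN3 (-1.05 ± 0.55) those of H1975 and A549 were, without a call. The response of ADM in H1975 exceeded that in H1299 by 4.30 ± 0.43 (adjusted p = 6.29e-08), that of VEGFA by 2.29 ± 0.42 (adjusted p = 0.000694) and that of NDRG1 by 2.07 ± 0.38 (adjusted p = 0.000672). These were the 3 of 9 members called in that pair, where 5.7% of all genes were called. In H1299 NDRG1 lay below the brightest background probe set in both groups, and ADM did with Omomyc. The sizes of their differences are therefore uncertain. Between H1975 and A549 only ADM passed, by 2.45 ± 0.47 (adjusted p = 0.00167), where 4.62% of all genes were called. NDRG1 (1.13 ± 0.42, adjusted p = 0.136) and VEGFA (0.88 ± 0.46, adjusted p = 0.377) passed in this pair with array set as a block (adjusted p = 0.0304 and 0.00835). They did not with the replicate block (adjusted p = 0.0905 and 0.0573) or with both blocks (0.118 and 0.119). NDRG1 also passed after quantile normalization (0.0361) and after median centring (0.0425). Between A549 and H1299 ADM passed at 1.86 ± 0.46 (adjusted p = 0.0245), where 2.47% of all genes were called. That call was lost without A549 PBS replicate 2 (adjusted p = 0.0529), A549 PBS replicate 4 (adjusted p = 0.0633) or A549 Omomyc replicate 3 (adjusted p = 0.0903). VEGFA (1.41 ± 0.45, adjusted p = 0.103) did not pass in this pair. It passed with array set as a block (0.00185), after quantile normalization (0.0257) and after median centring (0.0124). LOX did not pass either (adjusted p = 0.0685), and passed with array set as a block (1.29 ± 0.37, adjusted p = 0.03). All LOX group means in A549 and H1299 lay below the brightest background probe set, so the size of this difference is uncertain. With the replicate block, whose same-numbered arrays shared an array set in these 2 lines, neither passed (adjusted p = 0.0683 for VEGFA and 0.0824 for LOX). With both blocks VEGFA passed (0.0233) and LOX did not (0.0724).

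**Figure D3:**
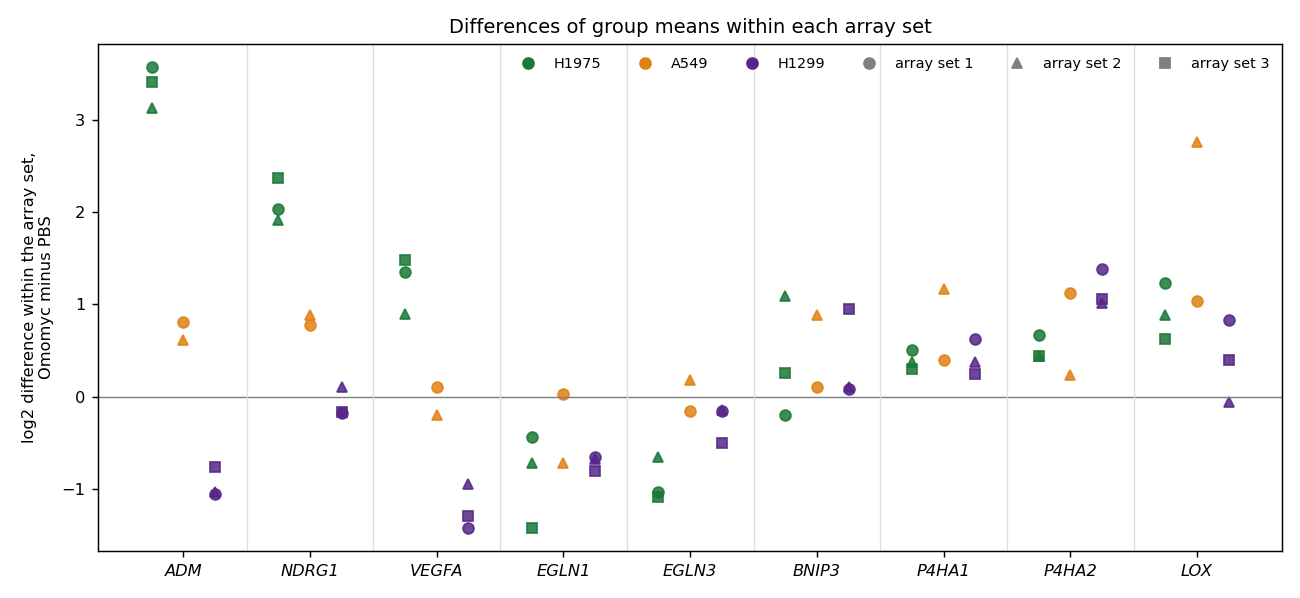
Difference of the group means, Omomyc minus PBS (log2), within each array set (marker shape) for each line (colour). H1975 has ADM at 3.13 to 3.57 and NDRG1 at 1.91 to 2.37 in all 3 array sets, while BNIP3 spreads from -0.20 to 1.09 there. A549 has no Omomyc array in array set 3, and several points rest on 1 array a group.

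The regulators of the pathway were called in small numbers. Of 16 measured, 4 rose and 1 fell in H1975 (5.57% and 6.28% of all genes), 1 rose in A549 (0.916%), and 2 rose and 1 fell in H1299 (4.35% and 4.52%). With array set as a block 6 rose and 2 fell in H1975, where 9.37% and 9.85% of all genes were called, and the other counts were as before. With 1 array left out 3 to 5 were called in H1975, 3 without PBS replicate 2 or 4, and 0 in A549 without PBS replicate 4 or Omomyc replicate 3. Their medians were 0.20, 0.02 and 0.06 in H1975, A549 and H1299. HIF1A, the gene of the main oxygen-sensitive subunit, was at 16.25 ± 0.18 with Omomyc and 15.63 ± 0.35 with PBS in H1975. It rose by 0.61 ± 0.20 (adjusted p = 0.0386). This call was lost without PBS replicate 1, 2 or 4 or Omomyc replicate 2, 3 or 5 (adjusted p up to 0.182). It was also lost with the replicate block (0.0574), with both blocks (0.414) and on the arrays of the line alone (0.12). HIF1A did not pass in A549 (-0.17 ± 0.22) or H1299 (0.14 ± 0.19). EPAS1, which encodes HIF-2 alpha, rose in H1299, at 8.14 ± 0.25 with Omomyc and 7.43 ± 0.35 with PBS (0.71 ± 0.22, adjusted p = 0.0397). That call was lost without PBS replicate 3, 4 or 5 or Omomyc replicate 1, 3 or 5 (adjusted p up to 0.131). It was also lost on the arrays of the line alone (0.0588). In H1975 the EPAS1 difference of 0.67 ± 0.23 did not pass (adjusted p = 0.0584). It passed with array set as a block (0.00841), with the replicate block (0.01), after quantile normalization (0.0362) and with trend and robust eBayes (0.0404). With both blocks 0 of the 16 regulators were called in H1975. ARNT rose by 0.77 ± 0.20 in H1299 (adjusted p = 0.0106), where the ubiquitin ligase component gene ELOC fell by 0.71 ± 0.19 (adjusted p = 0.0129).

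In H1975 HIF1AN, whose asparagine hydroxylase blocks HIF from its coactivators, fell to 10.17 ± 0.13 with Omomyc, against 10.96 ± 0.20 with PBS (-0.79 ± 0.17, adjusted p = 0.002). SIAH1, a ubiquitin ligase gene whose protein can mark EGLN proteins for destruction, rose by 1.06 ± 0.20 (adjusted p = 0.000538), and CITED4, from a family that competes for HIF coactivators, rose by 1.56 ± 0.41 (adjusted p = 0.0113) below the brightest background probe set. Without PBS replicate 1 CITED4 was at 1.14 (adjusted p = 0.0789). CITED2, of the same family, rose by 1.03 ± 0.23 in A549 (adjusted p = 0.0137; adjusted p = 0.0683 with the replicate number as a block). VHL and EGLN2, the remaining hydroxylase gene, passed in no line, with differences between -0.35 and 0.46.

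In a wider set of hypoxia-inducible genes, some were called in opposite directions in H1975 and H1299 and others in the same direction. Of 37 measured, 13 rose and 1 fell in H1975 (median 0.42; 5.57% and 6.28% of all genes), 1 rose and 1 fell in A549 (median 0.04; 0.916% and 0.277%), and 6 rose and 3 fell in H1299 (median 0.24; 4.35% and 4.52%). With 1 array left out the number called in H1975 was 7 to 14, being 7 without PBS replicate 4 and 9 without Omomyc replicate 1 or 3. In A549 it was 1 without PBS replicate 1, 3 or 4 or Omomyc replicate 1 or 3. With the array set as a block the counts were 15 and 2 in H1975 (9.37% and 9.85% of all genes), 1 and 2 in A549 (1.71% and 1.13%), and 12 and 4 in H1299 (7.73% and 8.17%). BHLHE40, a transcriptional repressor gene, rose in both H1975 (14.84 ± 0.37 with Omomyc, 11.67 ± 0.29 with PBS, difference 3.17 ± 0.31) and H1299 (11.42 ± 0.27 and 8.85 ± 0.45, difference 2.57 ± 0.29). STC2, a secreted glycoprotein gene, rose by 2.26 ± 0.24 in H1975 (adjusted p = 9.36e-08) and fell by 2.74 ± 0.22 in H1299 (adjusted p = 2.95e-09). The fall ended at 6.17 ± 0.43, below the brightest background probe set, so its size is uncertain. DDIT4, an inhibitor of mTORC1 signalling, fell by 2.36 ± 0.21 in H1299 (adjusted p = 1.65e-08), and BNIP3L, the paralog of BNIP3, rose there by 0.94 ± 0.16 (adjusted p = 0.000268). The transferrin receptor gene TFRC fell by 2.03 ± 0.22 in H1975 (adjusted p = 2.12e-07). In A549 TMEM45A rose by 2.00 ± 0.35 (adjusted p = 0.00149) from a level below the brightest background probe set. PLOD2, a lysyl hydroxylase gene of collagen, fell there by 0.88 ± 0.23 (adjusted p = 0.0495), a call lost with the replicate number as a block (adjusted p = 0.173).

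Of 23 measured paralogs and partners of the members, 1 rose and 1 fell in H1975, 0 were called in A549 by limma and 2 rose in H1299. Of all genes, the shares were 5.57% higher and 6.28% lower in H1975, 0.916% higher in A549 and 4.35% higher in H1299, so these counts are not a result about the list. With array set as a block 2 rose and 3 fell in H1975 (9.37% and 9.85% of all genes), 1 rose in A549 (1.71%) and 4 rose in H1299 (7.73%). With 1 array left out 2 to 3 were called in H1975, 0 in A549 and 2 to 4 in H1299, where the 4 came without Omomyc replicate 4. P4HB, the protein disulfide isomerase that forms the beta subunit beside P4HA1 and P4HA2, rose in H1299, where P4HA2 rose. It was at 14.51 ± 0.32 with Omomyc and 13.46 ± 0.32 with PBS (1.05 ± 0.19, adjusted p = 0.000395). In A549 its difference of 0.84 ± 0.23 did not pass (adjusted p = 0.0681) and passed with array set as a block (0.0243). In H1975 the difference was 0.08 ± 0.20. VEGFC, a lymphatic growth factor gene, rose by 1.49 ± 0.29 in H1299 (adjusted p = 0.000795), the line in which VEGFA fell. In H1975 P4HA3 rose by 1.30 ± 0.27 and LOXL4 fell by 1.24 ± 0.30, both below the brightest background probe set. The receptor genes CALCRL, for adrenomedullin, and KDR, for VEGFA, were named after their values were seen and lay between 2.64 and 3.85 in every group, below that level.

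Glycolytic hypoxia targets, given for comparison, had 7 of 18 rising in H1975 (5.57% of all genes), 1 in A549 (0.916%) and 2 in H1299 (4.35%), where 1 fell (4.52%). With 1 array left out, 5 to 6 were called in H1975, 0 to 2 in A549 (0 without Omomyc replicate 2, 2 without PBS replicate 3) and 2 to 4 in H1299. The glucose transporter gene SLC2A3 rose in H1975 (2.28 ± 0.21) and in H1299 (1.40 ± 0.20), the line in which ADM and VEGFA fell.

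Genes regulated by ATF4, the transcription factor of the integrated stress response, include 5 that rose in H1975 and fell in H1299, as ADM and VEGFA did: DDIT3, TRIB3, ASNS, PHGDH and SLC7A11. Of 11 measured, 7 rose in H1975 (median 1.53; 5.57% of all genes), 1 rose in A549 (median -0.04; 0.916%) and 8 fell in H1299 (median -2.37; 4.52%). The other 6 were called in 1 of these lines or in neither. DDIT3, which encodes CHOP, was at 10.70 ± 0.38 with Omomyc and 6.09 ± 0.04 with PBS in H1975 (4.61 ± 0.25, adjusted p = 4.13e-13). The PBS level lay below the brightest background probe set, so the size of this rise is uncertain. DDIT3 rose by 1.35 ± 0.28 in A549 (adjusted p = 0.00909). The A549 call was lost without PBS replicate 4, Omomyc replicate 1 or Omomyc replicate 3 (adjusted p up to 0.0703) and on the arrays of the line alone (0.0709). The serine synthesis gene PHGDH rose by 2.63 ± 0.27 in H1975 (adjusted p = 9.15e-08). In H1299 the cystine transporter gene SLC7A11 fell to 8.47 ± 0.52 with Omomyc, against 12.31 ± 0.41 with PBS (-3.84 ± 0.26, adjusted p = 1.19e-10), and PSAT1, of serine synthesis, fell by 2.37 ± 0.17. What part the ATF4 genes' regulators have in the values of ADM, VEGFA or NDRG1 was not tested.

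**Figure D4:**
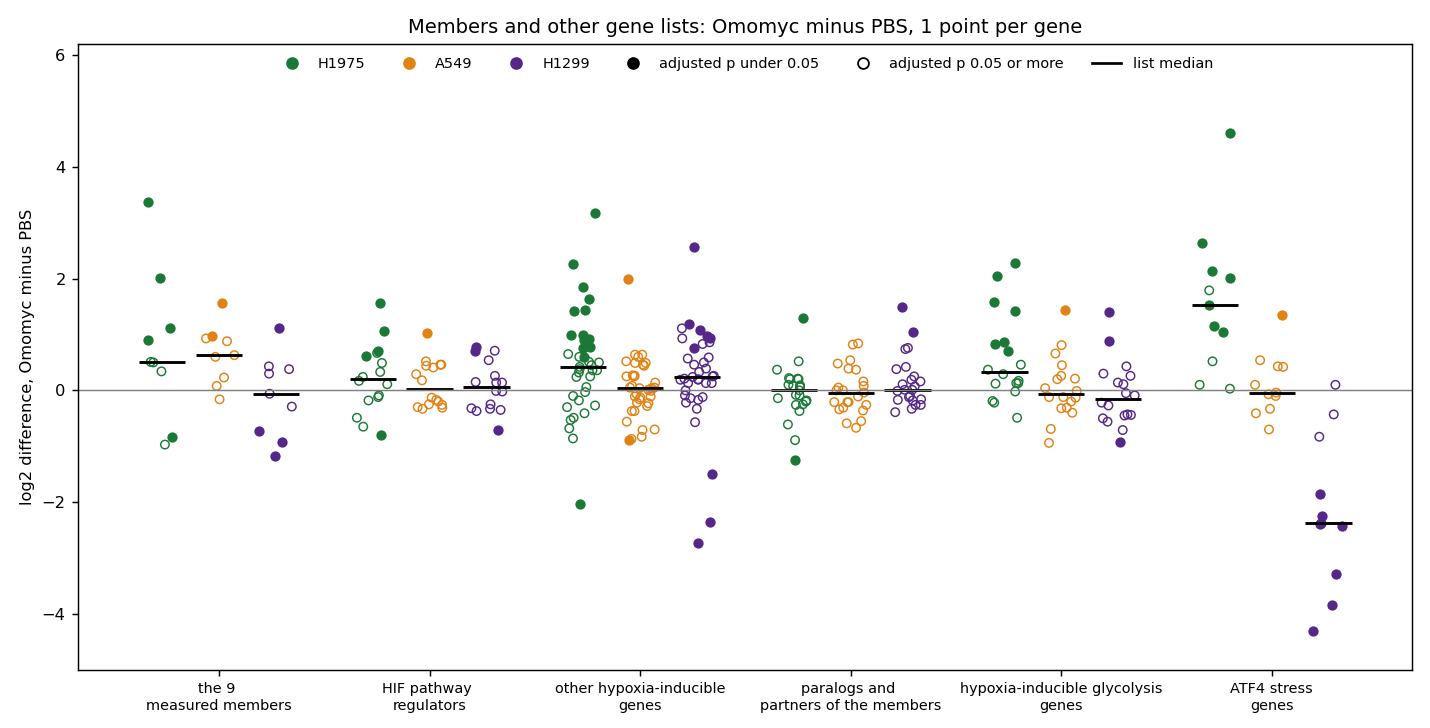
Difference Omomyc minus PBS (log2) of each gene of 6 lists in H1975 (green), A549 (orange) and H1299 (purple). Filled points have an adjusted p under 0.05, and black bars are list medians. The members' medians are 0.51, 0.63 and -0.06, those of the other hypoxia-inducible genes 0.42, 0.04 and 0.24, and those of the ATF4 genes 1.53, -0.04 and -2.37.

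Likeness across the 26 arrays was described by Pearson's r after removing line and array set, among genes above the median level. These correlations share arrays and treatment and carry no test. The 3 genes most like ADM were DDIT3 (r = 0.955), GADD45A (0.928) and GDF15 (0.91). For NDRG1 they were PABIR3 (0.885), GDF15 (0.876) and SLC29A2 (0.868), and for VEGFA ASNS (0.942), GARS1 (0.925) and ALDH1L2 (0.917). None of these 9 places was taken by another member. EGLN1 was most like STAG1 (0.912), EXOG (0.901) and G3BP1 (0.873), EGLN3 like CENPI (0.825), SLC25A44 (0.79) and AGO1 (0.786), and BNIP3 like COX7A2 (0.905), UBXN1 (0.89) and NDUFV3 (0.882). Among the members themselves r was 0.8 for ADM with NDRG1, 0.76 for ADM with VEGFA and 0.64 for NDRG1 with VEGFA. Among the collagen enzymes it was 0.75 for P4HA1 with LOX, 0.66 for P4HA1 with P4HA2 and 0.56 for P4HA2 with LOX, and for EGLN1 with EGLN3 0.64. EGLN1 ran against ADM (-0.50), NDRG1 (-0.53) and BNIP3 (-0.54), and BNIP3 had -0.07 with VEGFA.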

How the data were processed

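RNA of 26 samples was hybridised to single-colour arrays. The deposited values are log2 levels per probe set, between 1.35 and 19.91. RMA and Partek are named, without versions, per the submitters' processing notes. No genome build is given in the sources used here. Probe sets were named through the platform annotation: of 24351 features, 17709 had 1 gene symbol, all matched by Entrez ID, and 0 had several. A gene's probe set with the highest mean over all arrays was used, and each member had 1.

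A linear model with a mean for each group was fitted over the 26 arrays with lmFit and eBayes of limma 3.58.1 (statmod 1.5.0, R 4.3.3), with 20 residual degrees of freedom. The contrasts set Omomyc against PBS in each line, added the differences of these responses between lines with a moderated F test, and compared the PBS groups. The number of arrays limits the precision. The 10 members, the gene lists and the markers were chosen with earlier results of these data known. Array sets are the 3 clusters from average linkage clustering of the sorted values of whole arrays, and no source names them. No pair of arrays was identical.

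Named genes are the members and, from each list and line, up to 2 called genes in each direction, taken by smallest p. HIF1A, EPAS1, ARNT, VHL, EGLN2 and HIF1AN were added. Same-numbered Omomyc and PBS arrays of a line were tested for pairing through the correlation of their residuals. It was 0.259 to 0.389 over the 5 pairs of H1299 and 0.109 to 0.196 over the 3 of A549, all sharing an array set. In H1975 the 4 pairs had -0.196 to 0.331, and not all of them shared an array set. With the array set removed no pair exceeded 0.082. The correlations therefore do not show pairing beyond a shared array set in any line. The fit was tested on simulated data. Alternatives were quantile normalization, centring on medians, a filter at the 30th percentile of mean level, averaged probe sets, the arrays of the compared lines alone, trend and robust eBayes, the array set as a block, the replicate block, both, each array set alone, and leaving out each array.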

Additional observations from a re-analysis of the deposited data

Results flagged for a closer look

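The responses of ADM, NDRG1 and VEGFA differed between the 3 lines by the F test of limma, with adjusted p of 2.51e-07, 0.0019 and 0.00178. ADM and VEGFA rose in H1975 and fell in H1299, and NDRG1 rose in H1975 with a difference of -0.06 in H1299.

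Of 45 groups of 4 or 5 arrays examined for a single array far from the others, 4 had one, and chance alone gives this in about 1 in 20 groups. ADM on H1299 Omomyc replicate 4 was at 5.06, where the other Omomyc arrays of the line lay at 6.24 to 6.67. NDRG1 on H1975 Omomyc replicate 3 was at 13.15, above the others at 12.32 to 12.50. BNIP3 on A549 PBS replicate 4, the only A549 array of array set 3, was at 12.01, below the others at 12.91 to 13.04. P4HA1 on A549 PBS replicate 3 was at 10.24, below the others at 10.58 to 10.64. Without H1299 Omomyc replicate 4 the ADM difference in H1299 was -0.643 and did not pass (adjusted p = 0.174).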

How the results depend on the processing

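The counts of called members were 5 in H1975, 2 in A549 and 4 in H1299. In A549 the count was 1 after quantile normalization, after median centring, with the replicate block and with the replicate block together with the array set, and 0 on the arrays of the line alone and on array set 1 or array set 2 alone. Same-numbered arrays shared an array set in A549 and H1299, and pairing beyond that was not shown. Among the members the replicate block changed no other call in these lines than that of P4HA2 in A549. In H1975, where not all same-numbered arrays shared an array set, the replicate block left 5 called and the block together with the array set 3. Array set 2 alone left 2 called in H1975. In H1299 array set 2 alone left 0. Array set 3 alone called VEGFA and BNIP3 there, of which BNIP3 was not called over all arrays, and the calls of ADM, EGLN1 and P4HA2 were lost. Leaving out 1 array gave 3 to 6 called members in H1975, 1 to 2 in A549 and 2 to 4 in H1299. The cause of these changes was not tested, beyond the fewer arrays in the fits on single array sets and with arrays left out. The calls of ADM and NDRG1 in H1975, LOX in A549 and VEGFA and P4HA2 in H1299 were kept whichever 1 array was left out. On the arrays of the line alone the calls of EGLN1 in H1975 (adjusted p = 0.0622), ADM in H1299 (0.11) and P4HA2 (0.282) and LOX (0.0558) in A549 were lost.

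The differences that changed sign passed in neither setting. In A549 EGLN3 was -0.036 with the replicate block, with or without the array set, -0.145 on array set 1, and -0.372 to 0.384 with 1 array left out, EGLN1 was 0.026 on array set 1 and -0.318 to 0.129 with 1 array left out, and VEGFA was -0.197 on array set 2. In H1299 NDRG1 was 0.11 on array set 2 and -0.341 to 0.113 with 1 array left out, LOX was -0.064 and HIF1AN 0.052 on array set 2, and HIF1A was -0.178 on array set 1 and -0.01 on array set 3. In H1975 BNIP3 was -0.20 on array set 1, EGLN2 was 0.105 with the replicate block and -0.342 to 0.105 with 1 array left out, and VHL was 0.408 with both blocks and 0.266 on array set 2. Of the PBS differences, BNIP3 for A549 minus H1299 was -0.01 with the array set as a block and -0.105 to 0.273 with 1 array left out, VEGFA for the same pair -0.32 to 0.14, and EGLN1 for H1975 minus H1299 -0.021 to 0.265.

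Values near or below the brightest background probe set bound what can be read of EGLN3, LOX and NDRG1 in H1299, of EGLN3 and LOX in A549 and of ADM in H1975 and H1299. Where a fit on 1 array set had 1 array of a group, that array was assumed to vary like the other groups.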

Other observations

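CA12, a carbonic anhydrase gene related to CA9 and chosen after its values were seen, was at 11.79 ± 0.32 with Omomyc and 9.94 ± 0.41 with PBS in H1975, a rise of 1.85 ± 0.28 (limma adjusted p = 3.55e-05). In A549 it was at 16.63 ± 0.16 with Omomyc and 16.63 ± 0.20 with PBS, and in H1299 it lay below the brightest background probe set in both groups. The response of CA12 differed between lines by the F test (adjusted p = 0.00588). On the 4 arrays of H1299 in array set 3 alone, BNIP3 was 0.95 higher with Omomyc (adjusted p = 0.0428), whereas it was 0.08 and 0.10 higher in array sets 1 and 2.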
